A study of Rattus norvegicus with 14 samples.

Results

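The expression of 10 genes of MHC antigen presentation was examined in colonocytes, which form the epithelial lining of the colon, from rats. These were the MHC class II chains RT1-Da, RT1-Db1, RT1-Ba and RT1-Bb, the peptide loading chains RT1-DMa and RT1-DMb, the invariant chain Cd74, the transactivator Ciita, and the class I partners B2m and Tap1. They were chosen by gene name: every non-control probe that the array annotation assigns to them was kept, which gave 12 of 30367 probes and 10 of 26276 gene names. RT1-Db1 and RT1-Bb had 2 probes each and every other gene had 1. The naming rule used no measured value, but the genes were chosen with earlier results of these data known.

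Male Wistar rats, aged 5 to 6 weeks at the start, received a standard diet for 1 week. They were then fed for 15 days either a normal-protein diet (NPD, 14% of energy from protein) or an isocaloric high-protein diet (HPD, 55% of energy from protein). Colonocytes were detached from the colon by perfusion with EDTA and gentle tapping, without a sort, and each rat's RNA was hybridised to its own 1-colour Agilent array, with 7 NPD and 7 HPD rats. Values are log2 intensities relative to the array median, which is therefore 0 on this scale, and differences are HPD minus NPD.

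MHC class II molecules are pairs of an alpha and a beta chain that present peptides from endocytosed proteins to helper T cells. The invariant chain occupies their groove until RT1-DM exchanges its remnant for a peptide, and CIITA, which does not bind DNA itself, switches the class II genes on through factors bound at their promoters. Dendritic cells, macrophages and B cells carry class II constitutively, while intestinal epithelium acquires it mainly under interferon-gamma. Class I molecules, which nearly all nucleated cells carry, hold peptides that the TAP transporter brings into the endoplasmic reticulum and need beta-2-microglobulin as their light chain.

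All 10 colonocyte marker genes examined were well above background on the 14 arrays. Between 18835 and 20967 probes per array met that mark, and no member probe was saturated. The arrays lay on 2 slides, the first with 4 NPD and 3 HPD rats and the second with 3 NPD and 4 HPD rats. With diet and slide in the limma model, 12164 of 30367 probes differed between slides at a q-value below 0.1, and 27 between diets. The differences below have no slide term unless stated. The median difference over all probes was 0.11 and became 0.00067 after cyclic loess, so differences of this size move with the scaling. NPD rat 4 stood apart from the other rats: its B cell markers summed to 5.10 times the array median against 0.236 to 1.51 elsewhere, and its pan-leukocyte markers to 116.8 against 44.8 to 85.3. Results that rest on this rat are given with and without it. In such RNA from bulk cells, fewer cells of a type and less RNA per cell cannot be told apart.

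Cd74, RT1-Da, RT1-Db1 and RT1-Bb each had a lower mean in HPD than in NPD rats on their brightest probe, but no member passed the test over all probes. Of the 12 member probes, 10 had a negative difference and 2 a positive one, with a median of -0.22, against a median of 0.11 over all probes, of which 35.8% were negative. Relative to the median of all probes, 11 of the 12 were lower. The count of member probes below a limma q-value of 0.1 was 0, where 0.056% of all probes were called, none of them lower in HPD. It was also 0 with slide as a block, where 0.0889% of all probes were called, and 3 with normexp background correction (RT1-Db1, RT1-DMa and Cd74), where 16.9% were. Before adjustment, 3 members (RT1-Db1, RT1-Bb and Cd74, each on its brightest probe) had p-values under 0.05, all lower in HPD, where 5.55% of all probes met that mark in that direction. Over all settings that count ran from 1 to 5. It was 1 without NPD rat 4, where 3.74% of all probes met the mark on the lower side, and 1 without HPD rat 7 (4%). It was 2 with slide as a block (7.32%) and 4 with centring on the mean (7.03%). It was also 1 without NPD rat 6 or HPD rat 2 or 4 and with the replicate number as a block. It was 5 with normexp and with either pixel signal. For these last settings the share of all probes is not given, so their counts of 1 and 5 cannot be set against it. With normexp 16.9% of all probes, in either direction, already passed the q-value threshold. The groups overlapped on every member probe, while 0.273% of all probes showed no overlap.

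**Figure D1:**
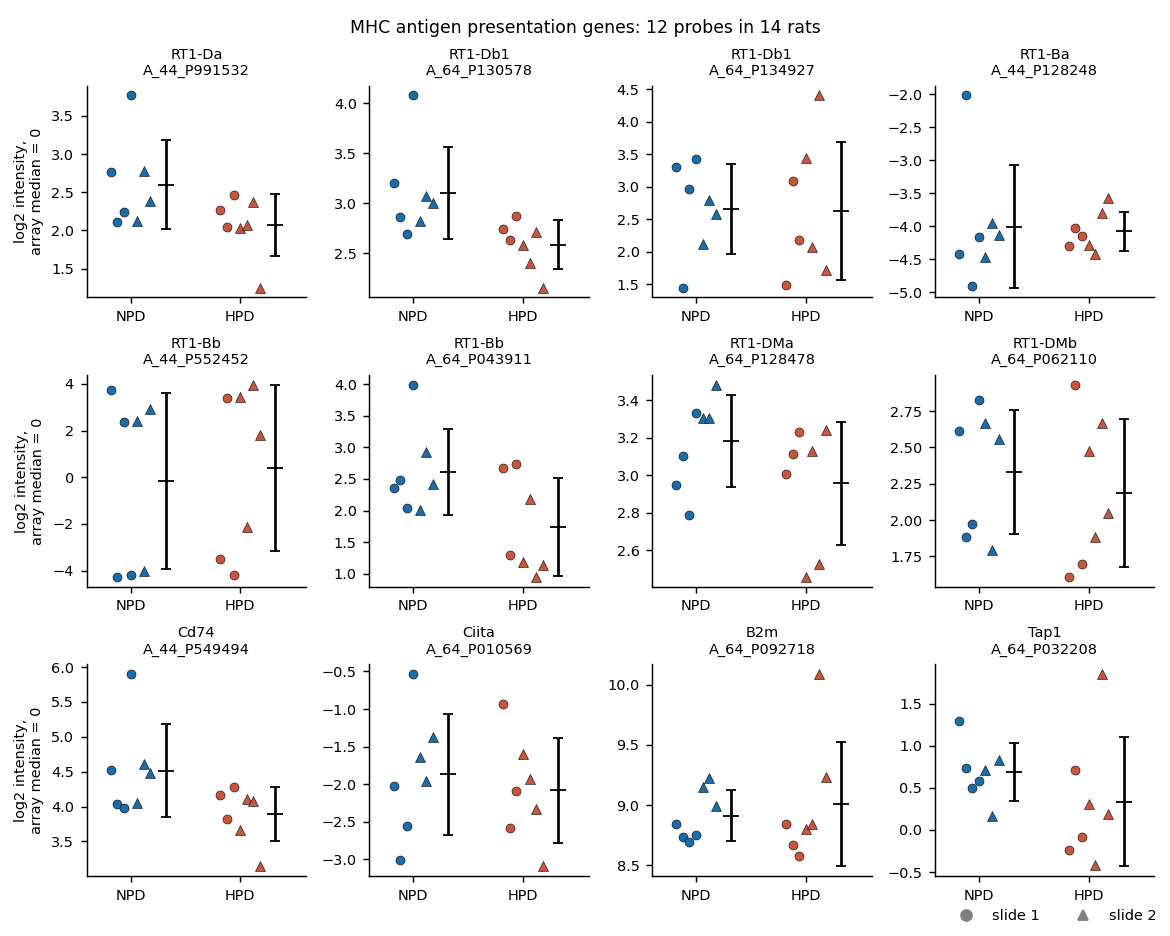
Log2 intensity relative to the array median (y axis) of each of the 12 probes in NPD and HPD rats (x axis). Each point is 1 rat, circles are slide 1 and triangles slide 2, and bars give the mean ± SD of 7 rats. On the Cd74, RT1-Da and first RT1-Db1 probes NPD rat 4 is the highest point and HPD rat 7 the lowest, and RT1-Bb A_44_P552452 splits into high and low rats in both diets.

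Cd74 encodes the invariant chain, the chaperone of newly made class II molecules. Its values were 3.98 at the lowest, 4.48 at the median and 5.90 at the highest in the 7 NPD rats, and 3.14, 4.07 and 4.28 in the 7 HPD rats. All 7 HPD rats lay below the NPD mean, but the groups overlapped. The NPD mean was 4.51 ± 0.67 (SD, n = 7) and the HPD mean 3.89 ± 0.39 (SD, n = 7). The difference was -0.62 (95% interval -1.20 to -0.037), or 65.1% of the NPD level, with a limma p-value of 0.0386 and an adjusted q-value of 0.427. The exact two-sided permutation test over 3432 splits of the arrays gave p = 0.0291, and regrouping only within slides gave an exact permutation p = 0.0620.

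The Cd74 difference was of like size on each slide and smaller without NPD rat 4. It was -0.52 within slide 1 and -0.64 within slide 2. Without NPD rat 4, whose value of 5.90 exceeded the next highest NPD value of 4.62, the difference was -0.39 with an unadjusted limma p of 0.0629. Without HPD rat 7, the lowest, it was -0.49 with a p of 0.0862. A probe named only TC588776, which the array design places less than a kilobase from the Cd74 probe and describes as an invariant chain transcript, gave a difference of -0.83 with an adjusted q-value of 0.417.

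RT1-Da encodes the alpha chain of the RT1-D molecule, the rat counterpart of HLA-DR. Its gene lies at chr20:4515393-4520387 of GRCr8. The NPD rats ranged from 2.12 to 3.77 with a median of 2.39, and the HPD rats from 1.25 to 2.47 with a median of 2.07. All 7 HPD rats were below the NPD mean of 2.60 ± 0.59 (SD, n = 7), and the HPD mean was 2.07 ± 0.40 (SD, n = 7). The difference of -0.53 had a limma p of 0.0553, an adjusted q-value of 0.441 and an interval of -1.06 to 0.014 that included 0. Without NPD rat 4 it was -0.33 with a p of 0.116.

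RT1-Db1 encodes the beta chain that pairs with RT1-Da, and its gene lies at chr20:4550594-4560182. On probe A_64_P130578 the NPD rats ranged from 2.69 to 4.08 with a median of 3.00. The HPD rats ranged from 2.16 to 2.88 with a median of 2.64. All 7 HPD rats were again below the NPD mean, and NPD rat 4 was the highest of the 14. This probe had the smallest p-value of the 12. The difference was -0.52 (95% interval -0.93 to -0.11), with a limma p of 0.0172, an adjusted q-value of 0.417, and an exact permutation p of 0.00641 over all splits and 0.0171 within slides. The difference was -0.46 on slide 1, -0.50 on slide 2 and -0.35 without NPD rat 4, where the unadjusted limma p was 0.0219.

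The other RT1-Db1 probe gave no such difference. On A_64_P134927, which lies about a kilobase away in the gene, the NPD rats ranged from 1.44 to 3.43 and the HPD rats from 1.48 to 4.41. The difference was -0.034 (95% interval -0.96 to 0.89) and its sign changed between slides. The correlation between the RT1-Db1 probes was 0.48 over 14 rats after the means of diet and slide were removed, as a description. Averaged over both probes, RT1-Db1 had a difference of -0.28 with an adjusted q-value of 0.623.

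**Figure D2:**
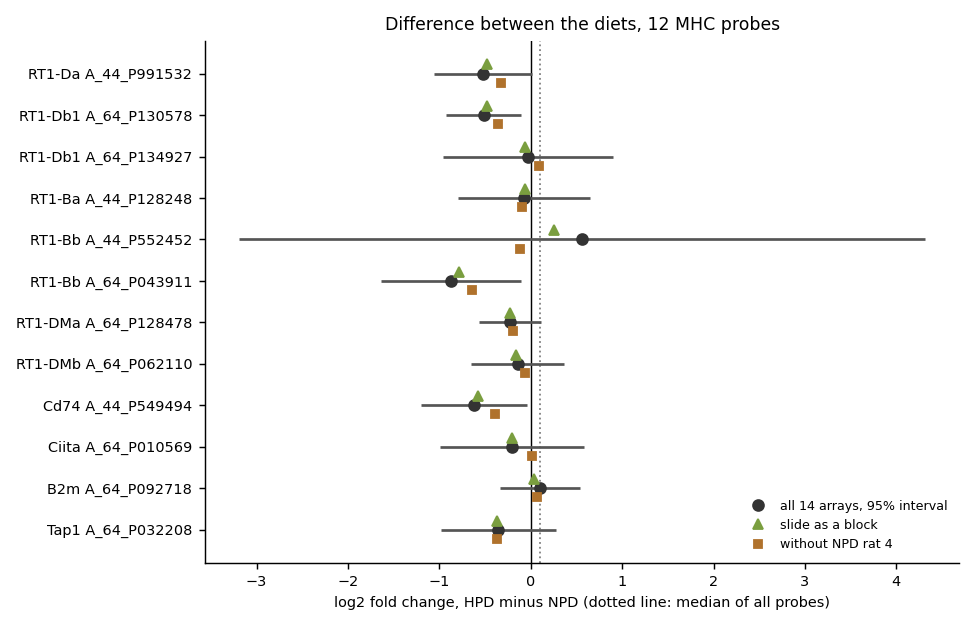
Difference in log2 intensity, HPD minus NPD (x axis), for each of the 12 member probes (y axis). Circles with lines are limma estimates with 95% intervals over 14 arrays, triangles have slide as a block, squares leave out NPD rat 4, the solid line is 0 and the dotted line is the median of all probes. The 3 intervals that exclude 0 are those of RT1-Db1 A_64_P130578, RT1-Bb A_64_P043911 and Cd74, and RT1-Bb A_44_P552452 has the widest interval.

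RT1-Bb encodes the beta chain of the RT1-B molecule, the rat counterpart of HLA-DQ, at chr20:4598475-4604118 of GRCr8. Its 2 probes read different stretches of the transcript and gave opposite pictures, so their sequences are shown with that of a related probe. The array annotation lists a further transcript, LOC688090, under probe A_64_P043911, and describes it as similar to an RT1 class II beta chain precursor. LOC688090 has a probe of its own, A_64_P024665, that the design leaves without a genome position. The sequences below are 5′ to 3′ from the array files. Capitals mark the 3 bases that differ between the first and second sequences in the 45 bases over which they overlap, and only the first 30 bases of the third are printed.
RT1-Bb A_64_P043911: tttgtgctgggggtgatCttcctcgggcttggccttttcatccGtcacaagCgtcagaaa
LOC688090 A_64_P024665: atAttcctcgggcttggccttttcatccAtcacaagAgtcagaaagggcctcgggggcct
RT1-Bb A_44_P552452: cagctgtgacagttgtgaaataccctagct
On the rn4 assembly the first maps to chr20:4732187-4732246, all 60 bases, and the third to chr20:4730533-4730583, 51 of its 60 bases.

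Probe A_44_P552452 was either near background or well above it, in both diets. In the NPD rats 1 to 7 its values were 3.75, -4.28, 2.35, -4.21, 2.40, -4.03 and 2.92. In the HPD rats 1 to 7 they were -3.50, 3.39, -4.19, 3.46, -2.12, 3.97 and 1.82. It was well above background in 4 of 7 NPD and 5 of 7 HPD rats. The SD within groups was 3.67, which ranked 4 of all 30367 probes from the top, and the difference of 0.56 had an interval of -3.19 to 4.31.

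Probe A_64_P043911 was well above background on all 14 arrays and ran the other way across rats. Its values in the NPD rats 1 to 7 were 2.36, 2.48, 2.04, 3.99, 2.01, 2.93 and 2.42. In the HPD rats 1 to 7 they were 2.68, 1.29, 2.74, 1.18, 2.18, 0.95 and 1.13. The 5 arrays with the lowest values on A_44_P552452 were the 5 highest on this probe. They came from both diets and include NPD rat 4.

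The LOC688090 probe followed A_64_P043911. Its values in the NPD rats 1 to 7 were 1.34, 1.86, 1.32, 3.49, 1.46, 2.32 and 1.67. Those in the HPD rats 1 to 7 were 2.003, 0.72, 2.08, 0.36, 1.78, 0.64 and 0.59. The 6 highest rats here were the 6 lowest on A_44_P552452, and the correlation with A_64_P043911 was 0.97 over 14 rats after the means of diet and slide were removed, as a description of probes that share most of their bases.

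By diet, A_64_P043911 had a mean of 2.61 ± 0.68 (SD, n = 7) in NPD and 1.74 ± 0.77 (SD, n = 7) in HPD rats. The difference of -0.87 (95% interval -1.63 to -0.11) had a limma p of 0.0281, an adjusted q-value of 0.418 and an exact permutation p of 0.0431, or 0.0580 within slides. Of the HPD rats, 5 of 7 were below the NPD mean. Without NPD rat 4 the difference was -0.64 with a p of 0.0616. The LOC688090 probe gave -0.75 with an adjusted q-value of 0.445. Whether A_64_P043911 reads RT1-Bb, LOC688090 or both in these rats was not tested. Which allele or locus gives the signal of either RT1-Bb probe in each rat was also not tested.

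**Figure D3:**
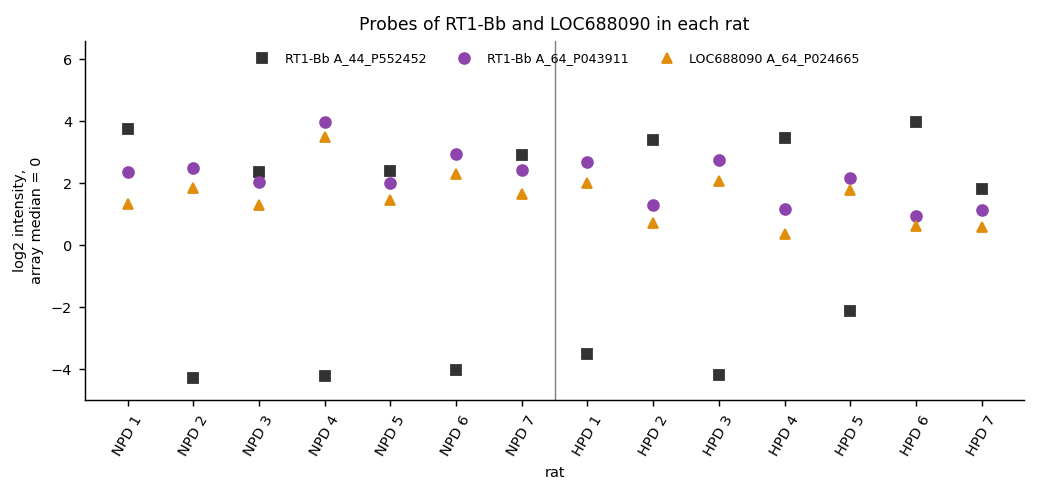
Log2 intensity relative to the array median (y axis) of the RT1-Bb probes and the LOC688090 probe in each rat (x axis, NPD to the left of the line and HPD to the right). Squares near -4 mark rats in which A_44_P552452 was near background. In those rats the other 2 probes were at their highest, up to 3.99 and 3.49 in NPD rat 4.

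RT1-Ba encodes the alpha chain that pairs with RT1-Bb. Its probe A_44_P128248 was well above background on 1 of 14 arrays, that of NPD rat 2 at -2.02, and the other arrays lay between -4.90 and -3.57. No fold is given, because both diets were near background on this probe.

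RT1-DMa and RT1-DMb form the RT1-DM molecule, which edits the peptide cargo of class II. RT1-DMa had means of 3.18 ± 0.24 (SD, n = 7) in NPD and 2.96 ± 0.33 (SD, n = 7) in HPD rats, and a difference of -0.22 with an interval of -0.56 to 0.12. It was -0.53 within slide 2 and 0.073 within slide 1. RT1-DMb ranged from 1.80 to 2.83 in NPD and from 1.61 to 2.93 in HPD rats. Its difference was -0.14 with an interval of -0.65 to 0.36. Neither was distinguishable from 0 at the spread of these rats, with adjusted q-values of 0.515 and 0.767.

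Ciita, the transactivator of the class II genes, was dim. Its probe was well above background in 5 of 7 NPD and 4 of 7 HPD rats, from -3.01 to -0.53 in NPD and from -3.09 to -0.93 in HPD. NPD rat 4 was again the highest and HPD rat 7 the lowest of the 14. The difference of -0.21 (interval -0.999 to 0.58) was 0.012 without NPD rat 4.

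On the class I side, B2m and Tap1 showed no difference beyond the spread between rats. B2m, the class I light chain, ranged from 8.69 to 9.22 in NPD rats and from 8.58 to 10.1 in HPD rats. HPD rat 6 was the highest, and the next HPD rat was at 9.23. The difference of 0.097 had an interval of -0.34 to 0.53, and its sign turned under several scalings. Tap1, a subunit of the peptide transporter, ranged from 0.17 to 1.30 in NPD and from -0.41 to 1.85 in HPD rats. HPD rat 6 was again the top value, and the median was 0.72 in NPD and 0.19 in HPD rats. The difference was -0.35 with an adjusted q-value of 0.562. Without HPD rat 6 it was -0.61, with an unadjusted limma p of 0.00984 and an adjusted q-value of 0.5775. Of 31 settings this was the only 1 in which the Tap1 limma p was under 0.05.

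Across rats, Cd74, RT1-Da and the first RT1-Db1 probe varied together within each diet. With the means of diet and slide removed, Pearson's r over 14 rats was 0.963 between Cd74 and RT1-Da, 0.943 between Cd74 and RT1-Db1 and 0.945 between RT1-Da and RT1-Db1, and Spearman's rho was 0.921, 0.855 and 0.916. Without the 2 rats farthest from the Cd74 median, NPD rat 4 and HPD rat 7, r over 12 rats was 0.86, 0.745 and 0.842. RT1-DMa did not share this pattern (r = 0.0058 with RT1-Da). These points share each array's scaling, and are a description.

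The genes most like Cd74 across rats were sought among 15281 genes well above background on all 14 arrays, members left out. TC588776 came first at r = 0.9701. The next were Ms4a6b (0.898), the chemokine receptor Ccr6 (0.878), Ceacam19 (0.855), the transcription factor Irf5 (0.845), Sh3bp5 (0.843), the leukocyte protein Lsp1 (0.840), the adaptor Dok3 (0.8287), the leukocyte actin regulator Coro1a (0.828) and Traf3ip3 (0.828). Without NPD rat 4 the values of these 10 ranged from 0.537 to 0.953. None had an adjusted q-value under 0.417 for diet.

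Class II promoters carry shared elements, known as the X and Y boxes, through which CIITA acts, and the stretches that hold them are shown because Cd74, RT1-Da and RT1-Db1 moved together. RefSeq promoters on GRCr8 were held for 8 of the 10 members. In the 250 bases before the start, 6 of the 8 had GATTGG, the core of the Y box, on either strand, compared with 13.3% of 33469 promoters. A pattern for the X box was read from the data: of all 10-base stretches in the 60 bases before GATTGG, the most alike in RT1-Da, RT1-Db1 and RT1-DMa shared 8 bases, GCNACNGATG. Those 3 genes hold it by construction, the other 5 have no exact match on either strand, and it occurs in 0.487% of all promoters. Only exact matches were sought, so a member without this pattern may still hold an X box. Both patterns together occur in 0.0807%. The motifs do not overlap each other. Each sequence runs 5′ to 3′ on the strand of its gene from base 130 to base 21 before the start, with motif matches in capitals. The start is that of the promoter reference. For RT1-Da and RT1-Db1 it lies inside the gene span given above, and for Cd74 and B2m it also lies inside the gene span.
RT1-Da, chr20:4515285-4515394, plus strand: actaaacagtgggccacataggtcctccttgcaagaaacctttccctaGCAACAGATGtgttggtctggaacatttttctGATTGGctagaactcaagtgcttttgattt
RT1-Db1, chr20:4560183-4560292, minus strand: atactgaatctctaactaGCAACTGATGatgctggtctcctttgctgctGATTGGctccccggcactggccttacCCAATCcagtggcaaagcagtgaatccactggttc
RT1-Ba, chr20:4576927-4577036, plus strand: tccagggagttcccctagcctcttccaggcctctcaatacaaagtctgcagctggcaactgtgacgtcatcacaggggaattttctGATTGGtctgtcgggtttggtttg
RT1-Bb, chr20:4604139-4604248, minus strand: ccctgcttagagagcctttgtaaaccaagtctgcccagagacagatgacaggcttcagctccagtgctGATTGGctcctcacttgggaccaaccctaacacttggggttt
RT1-DMa, chr20:4712356-4712465, minus strand: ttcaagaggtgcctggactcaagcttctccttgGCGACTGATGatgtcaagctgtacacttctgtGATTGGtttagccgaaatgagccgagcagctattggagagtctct
The first bases of both motifs were 32 bases apart in RT1-Da and RT1-DMa and 31 in RT1-Db1. RT1-DMa has both, although it did not vary with RT1-Da across rats. B2m also had GATTGG, and Cd74 and Tap1 had neither motif in the 250 bases searched. For Cd74 part of those bases lies inside the gene, which spans chr18:56527071-56536406. Bases 130 to 21 before its reference start, chr18:56527076-56527185, lie wholly in that span. The search therefore cannot tell whether Cd74 holds the motifs farther upstream. A match is a description of letters and not of a bound factor.

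Some markers of other cells moved with the class II genes in NPD rat 4. It ranked first of 14 in the summed levels of 6 pan-leukocyte, 4 B cell and 10 T and NK cell markers, and ninth in the colonocyte sum. In the sum of the 9 macrophage and dendritic cell markers it ranked only 10 of 14, at 12.2 in a range of 10.6 to 20.4, and HPD rat 7 ranked 3. The sums weight bright probes, and not every marker was high in NPD rat 4. Ptprc, at 2.61, and Cd3g, at 3.055, were the highest of the 14 rats. Itgae was the lowest at -3.47, Gzmb was -0.13 in a range of -0.45 to 1.08, and Fcer1g was 1.64 in a range of 1.36 to 2.78. In this rat Cd79b, a chain of the B cell receptor complex, was 2.03, and the other B cell markers lay between -3.43 and -0.68. The B cell sum ranged from 0.236 to 5.10 in NPD and from 0.241 to 1.51 in HPD rats (exact permutation p = 0.735). HPD rats 1 and 5 had the next highest B cell sums, 1.51 and 1.09. Their Cd74 values were 4.17 and 4.10, where the 7 HPD rats ranged from 3.14 to 4.28 with a median of 4.07. HPD rat 7, lowest for Cd74, had the highest colonocyte sum, 9734 against 6556 to 8249 in the others.

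By diet, all 6 pan-leukocyte markers (Ptprc, Coro1a, Laptm5, Tyrobp, Fcer1g and Lcp1) had negative differences, with a median of -0.20 and none called. Their sums ranged from 53.4 to 116.8 in NPD and from 44.8 to 85.3 in HPD rats (exact permutation p = 0.269). Of the B cell markers Cd22 was well above background on 0 arrays, Ms4a1 on 1, Cd79a on 4 and Cd79b on 7. Of the 9 macrophage and dendritic cell markers 4 were at background on all arrays, and 4 of the other 5 had positive differences. Of the 10 T and NK cell markers 8 had negative differences. With all rats 2 of the 4 B cell and 2 of the 9 macrophage and dendritic cell markers had negative differences. Without NPD rat 4 the negative counts were 5 of the 6 pan-leukocyte and 6 of the 10 T and NK cell markers. In that setting they were 0 of the 4 B cell and 3 of the 9 macrophage and dendritic cell markers. Of all probes, 35.8% were negative, or 36.4% without NPD rat 4. What part these cells have in the class II values was not tested.

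**Figure D4:**
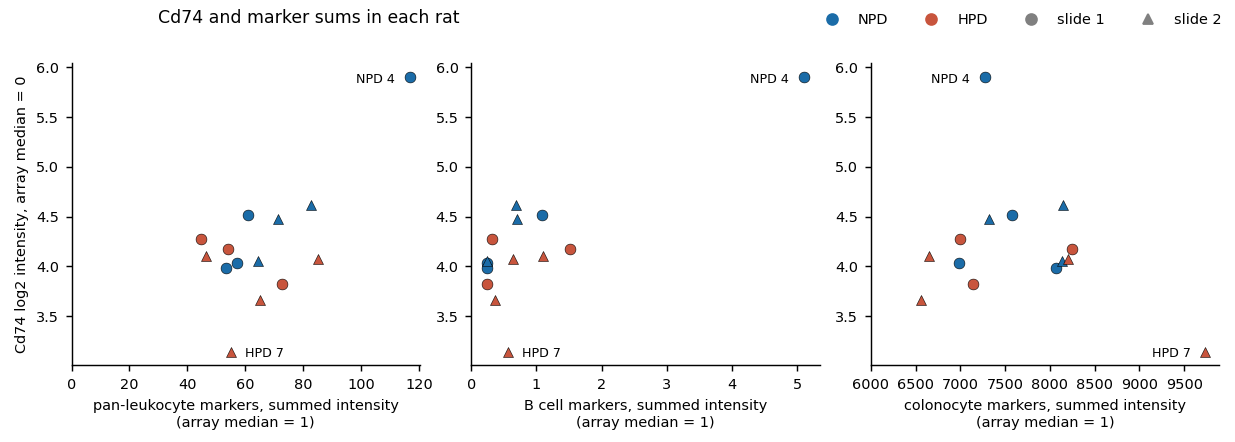
Cd74 log2 intensity relative to the array median (y axis) against summed linear intensity of pan-leukocyte, B cell and colonocyte markers relative to the array median (x axes, the last not starting at 0). Each point is 1 rat, blue for NPD and red for HPD, circles for slide 1 and triangles for slide 2. NPD rat 4 is highest for Cd74, pan-leukocyte and B cell markers, and HPD rat 7 is lowest for Cd74 and highest for colonocyte markers.

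The wider pathway was read from 7 gene lists, each gene by its brightest probe, and no gene of any list was called. The counts of direction stand beside 35.8% of all probes with a negative difference, or 36.4% without NPD rat 4. The largest list was the class I heavy chains, the kind of chain that B2m accompanies, with 35 genes on the array. It took every RT1 gene name that was neither a member nor a listed class II partner, and not only the polymorphic chains. Of these 26 had negative and 9 positive differences, with a median of -0.22. Of the 30 that were well above background on at least 1 array, 25 had negative and 5 positive differences. Without NPD rat 4 the counts over the 35 were 25 and 10, with a median of -0.12. Before adjustment 3 were lower (RT1-A2, RT1-N1 and RT1-N3) and 1 higher (RT1-M4), against 5.55% of all probes on the lower side. Without NPD rat 4 the counts were 2 and 0, against 3.74% of all probes on the lower side. RT1-A2 had means of 6.78 in NPD and 6.04 in HPD rats, a difference of -0.74 and an adjusted q-value of 0.417. RT1-N1 had a difference of -1.09 and RT1-M4 of 0.91, with adjusted q-values of 0.417 and 0.419. A probe can bind transcripts of near-identical class I genes, so values of single heavy chains are uncertain.

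Among the 10 class II partners and regulators on the array, 7 had negative differences. Rfxap, a subunit of the RFX complex that binds the X box, had means of 1.498 in NPD and 1.085 in HPD rats. Its difference was -0.41, with an unadjusted limma p of 0.00767 and an adjusted q-value of 0.417. Rfxank, its partner subunit, had -0.22, and Nfyc, a subunit of the factor that binds the Y box, had -0.17. The 6 genes of class II processing split evenly, with 3 lower and 3 higher. Legumain (Lgmn), a lysosomal protease, had -0.27, cathepsin B (Ctsb) 0.17 and cathepsin D (Ctsd) 0.17.

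Of the 12 class I loading genes, 7 were lower. The immunoproteasome subunit Psmb8 had a difference of -0.74 with an adjusted q-value of 0.425, the chaperone Pdia3 had -0.56 and the tapasin relative Tapbpl -0.67. In the route from interferon-gamma to CIITA, 7 of 10 genes had positive differences in this scaling but 4 of 10 after cyclic loess or quantile normalization. Of all probes, 35.8% were negative in this scaling, 49.9% after cyclic loess and 46.5% after quantile normalization, so these counts move with the scaling. Jak2 had -0.55 and Jak1 -0.27, and the Ifng probe was well above background on 0 arrays.

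The costimulatory ligand Cd86 had a difference of -0.77, with an unadjusted limma p of 0.00902 and an adjusted q-value of 0.417. Its values ranged from -1.10 to 0.28 in NPD and from -1.99 to -0.61 in HPD rats. Of the 5 costimulation genes 3 were lower, or 2 without NPD rat 4. Cd274, the ligand PD-L1, was well above background on 2 arrays, and Pdcd1lg2 on 0. Among 4 class I-like molecules, the neonatal Fc receptor Fcgrt, which carries immunoglobulin across epithelium, had a difference of -0.55 with an adjusted q-value of 0.417. Hfe, of iron sensing, had -0.38. Mr1, which presents vitamin metabolites, was well above background on 0 arrays.

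**Figure D5:**
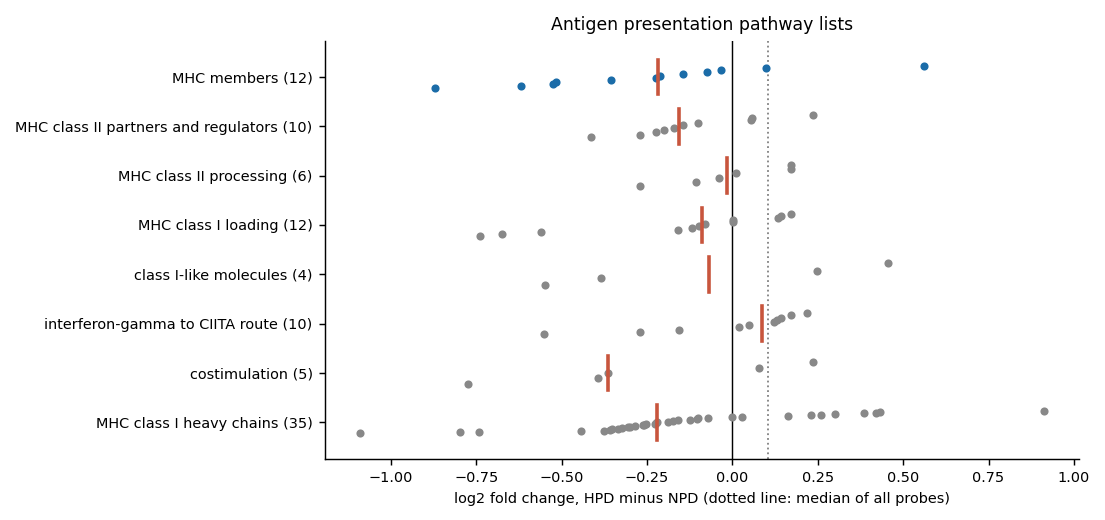
Difference in log2 intensity, HPD minus NPD (x axis), of each gene in the antigen presentation lists (y axis, number of genes or member probes in parentheses). Each point is a gene by its brightest probe (for the members, a probe), red bars are medians, the solid line is 0 and the dotted line is the median of all probes. The medians of the members and of the class I heavy chains both lie at -0.22, left of the dotted line.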

How the data were processed

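The members, the gene lists and the marker lists were chosen with earlier results of these data known. For every array the authors deposited the text that the scanner software wrote (Agilent Feature Extraction 10.7.3.1, probe coordinates on rn4), with the linear intensity of each spot raw and background-subtracted. They also deposited normalized log2 values by gene name. Per the study's methods 1 outlier array of each diet was removed by the authors and is not analysed here.

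Here the background-subtracted intensity was log2-transformed without control or outlier-flagged spots, replicate spots were averaged, and each array was centred on its median over 30367 probes. HPD was set against NPD in limma 3.58.1 (R 4.3.3) by lmFit and eBayes with no term but diet. P-values were adjusted by Benjamini-Hochberg across all probes, with 0.1 as the threshold for q. No filter on signal was applied. Exact two-sided permutation tests ran over 3432 splits of the arrays and over 1225 regroupings that keep each slide's numbers. The limma step was tested on simulated data. The number of arrays limits the precision, and the p-values measure the spread between these rats.

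Samples were grouped by their labels. Of the B cell list, 1 marker is not reported here and was left out of its sums and counts. The genes named were all members, up to 3 genes of each list with the smallest limma p-values, and the 10 genes most correlated with Cd74. LOC688090, TC588776, RT1-N3 and the leukocyte, B cell and T and NK cell markers were named outside this rule, after their values were seen. Gene positions and promoters are from RefSeq on GRCr8, and the data.table package (version 1.17.8) read the files. Of the columns in the tables, 0 belonged to other samples. Alternatives covered the pixel signal, background correction, centring, normalization, a signal filter, slide or replicate number as a block, a trend in eBayes, the deposited table, a q-value below 0.05 and leaving out each array.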

Additional observations from a re-analysis of the deposited data

Results flagged for a closer look

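Of 88 groups of 7 rats (44 probes named here in each diet), 14 held a rat whose gap to its nearest neighbour was large for the range of its group, where chance flags about 1 in 20 groups of independent values. NPD rat 4 stood apart at the high end of RT1-Da with 3.77, of RT1-Db1 A_64_P130578 with 4.08 and of Cd74 with 5.90, which vary together. It also did so for Ms4a6b with 1.998, Sh3bp5 with 1.22, Dok3 with 0.54 and Coro1a with 4.81, but these genes were named for following Cd74 across rats, so their values here are not independent of it. HPD rat 7 stood apart at the low end of RT1-Da with 1.25. HPD rat 6 stood apart at the high end of B2m with 10.09 and of Ms4a6b with 0.34. NPD rat 2 was high for RT1-Ba at -2.02. NPD rat 6 was low for Rfxank at 3.46. HPD rat 1 was high for Cd274 at -1.60 and for Jak1 at 3.82. The part of the leukocyte markers given above in the values of NPD rat 4 was not tested.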

How the results depend on the processing

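No member was called in any setting but normexp background correction, which called 3 of 12 (RT1-Db1 A_64_P130578, RT1-DMa and Cd74, with q-values of 0.0893, just under 0.1, and 0.0973) and 5142 of all probes, 36.3% of them lower. With all arrays 17 probes were called in all and 0 of them lower, 27 with slide as a block (14.8% lower), 8 with the replicate block, 20 with either pixel signal (20% lower), 18 in the deposited table (38.9% lower), 2767 there with slide as a block (62.1% lower) and, in a setting chosen after seeing the data, 40 with cyclic loess and slide together (35% lower). Leaving out each array gave 9 to 151 calls, with 151 without HPD rat 1 (86 of them lower), 28 without HPD rat 6 (11 lower), and 9 to 11 without NPD rats 2, 4 or 6 or HPD rats 4 or 5.

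The median over members stayed negative in every setting, from -0.31 to -0.15 on leaving out an array. The class II median ranged from -0.32 to -0.15 and was -0.52 over probes well above background. The differences of RT1-Da, RT1-Db1 A_64_P130578, RT1-Bb A_64_P043911, RT1-DMb, Cd74 and Tap1 stayed negative in every setting, but taken as a whole gene RT1-Bb was only -0.17 in the deposited table (limma q-value 0.889) and -0.15 as the mean of its probes (limma q-value 0.922), and RT1-Db1 was -0.29 and -0.28. The exact permutation p within slides moved RT1-Bb A_64_P043911 to 0.0580 and Cd74 to 0.0620.

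Signs turned for 6 member probes. B2m was -0.0074 with the mean pixel signal, -0.050 with normexp, -0.014 with quantile normalization, -0.036 with cyclic loess, -0.041 in the deposited table, -0.079 there with slide as a block, -0.038 with cyclic loess and slide, and -0.058 within slide 1. RT1-Ba was 0.12 with the mean and 0.13 with the median pixel signal, 0.11 with normexp, 0.086 and 0.093 in the deposited table without and with slide, and 0.15 within slide 2. Ciita was 0.061 and 0.042 with the mean and median pixel signal, 0.053 with normexp, 0.00089 and 0.011 in the deposited table without and with slide, and 0.16 within slide 1. RT1-DMa was 0.073 within slide 1, RT1-Db1 A_64_P134927 was 0.41 and RT1-Bb A_44_P552452 was -0.84 within the slide opposing their sign. With slide as a block and NPD rat 4 left out, these last probes gave 0.072 and -0.23. Leaving out each array gave ranges of -0.083 to 0.17 for B2m, -0.22 to 0.26 for RT1-Ba, -0.40 to 0.012 for Ciita, -0.33 to 0.16 for RT1-Db1 A_64_P134927 and -0.13 to 1.33 for RT1-Bb A_44_P552452. The cause was not tested.

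Replicate numbers did not pair the rats: deviations of same-numbered rats correlated from -0.090 to 0.39, and the replicate block gave q-values of 0.254 for Cd74 and 0.192 for RT1-Db1 A_64_P130578 and changed no member's call. Where a probe is near background on nearly all arrays, as for RT1-Ba, its values have little order.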

Other observations

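The tapasin relative Tapbpl, like RT1-Bb A_44_P552452, was split between high and low rats in both diets. Its values in the NPD rats 1 to 7 were 1.70, -0.090, 2.13, 2.29, -0.062, 2.29 and -0.055, and in the HPD rats 1 to 7 they were -0.096, -0.12, 1.59, 0.0022, -0.15, 2.37 and -0.12. It was well above background on all 14 arrays, and the rats that were high differed from those that were high on the RT1-Bb probe, since NPD rats 4 and 6 and HPD rat 3 were high for Tapbpl and near background there.

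HPD rat 6 was the highest of the 14 rats for the class I loading list, with a median deviation of 0.73 from the mean of each gene, and HPD rat 1 the lowest with -0.57. For the class I heavy chains NPD rat 1 was the highest with 0.60 and HPD rat 5 the lowest with -0.63.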
